A study of Citrullus lanatus with 6 samples.

Results

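GH3 proteins are the acyl acid amido synthetases of plants, and 3 genes described as GH3 were followed in watermelon leaves with and without salt. ClCG05G010400 is described as GH3, ClCG01G017180 as an auxin-responsive GH3 family protein and ClCG01G017190 as GH3-1. They are 3 of the 23568 genes in the expression table. The study listed them among the auxin genes that changed in these libraries, so they were chosen by the comparison of control with salt itself. Their difference between the groups is therefore given as a description with its standard error (SE), with no test. Other GH3 genes of the genome were not analysed here, since the descriptions used came from the study's lists of changed genes.

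The plants were seedlings of the cultivar Crimson Sweet, 6 weeks old, which were kept for 7 h either in 300 mM NaCl (salt) or in water (control). RNA-seq was done on leaves, with 3 libraries per group that the labels ascribe to 3 independent plants. Part of the labels calls the treated plants drought-stressed and part calls them salt-treated, and they are called salt here, after the series title and the paper. Whole leaf tissue was used at a single time and dose, so a change in the share of a cell type and a change in RNA per cell cannot be told apart.

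In Arabidopsis and rice, GH3 enzymes join hormones to amino acids. One branch of the family links indole-3-acetic acid, the main auxin, to amino acids such as aspartate and glutamate, which takes free auxin out of the active pool. Another branch acts on jasmonic acid and makes its active form, the conjugate with isoleucine. Many GH3 genes of the auxin branch are themselves switched on by auxin, and they are textbook early auxin response genes alongside Aux/IAA and SAUR genes. The descriptions do not say to which branch each of the 3 watermelon genes belongs. The sequences were not used here.

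Levels are FPKM, fragments per kilobase of gene relative to the fragments of the library, as computed by the authors. The libraries held 18838185 to 21258223 fragments, so 1 fragment on a gene of 1 kb stood for 0.047 to 0.0531 FPKM. Differences are salt minus control on the scale of log2(FPKM + 0.5), which understates the change of weak genes, and 16638 genes that averaged 0.5 FPKM or more were tested with limma. Across these genes the median difference was -0.57, and scaling each library by its median ratio moved it to -0.05. The summed level of 11 chlorophyll a-b binding genes, taken as leaf markers, was 5210 to 7130 FPKM in control and 184, 884 and 2130 FPKM in salt replicates 2, 3 and 1. The 11 genes came from the study's photosynthesis list, which the paper cites for genes lowered by salt in these libraries. Their drop is therefore no independent evidence. At most 1 of the 11 genes was at 0 in any library, and the part of this drop in the results below was not tested.

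All 3 GH3 genes were weak in control leaves and higher in every salt library than in any control library. Among all tested genes 17.7% had the same lack of overlap, and nothing is read from it for genes that were selected on this contrast. They differed in how far and how evenly they were higher. ClCG05G010400 was high in all salt libraries, ClCG01G017180 moderately higher in all of them, and ClCG01G017190 very high in salt replicates 1 and 2 and close to control in salt replicate 3.

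**Figure D1:**
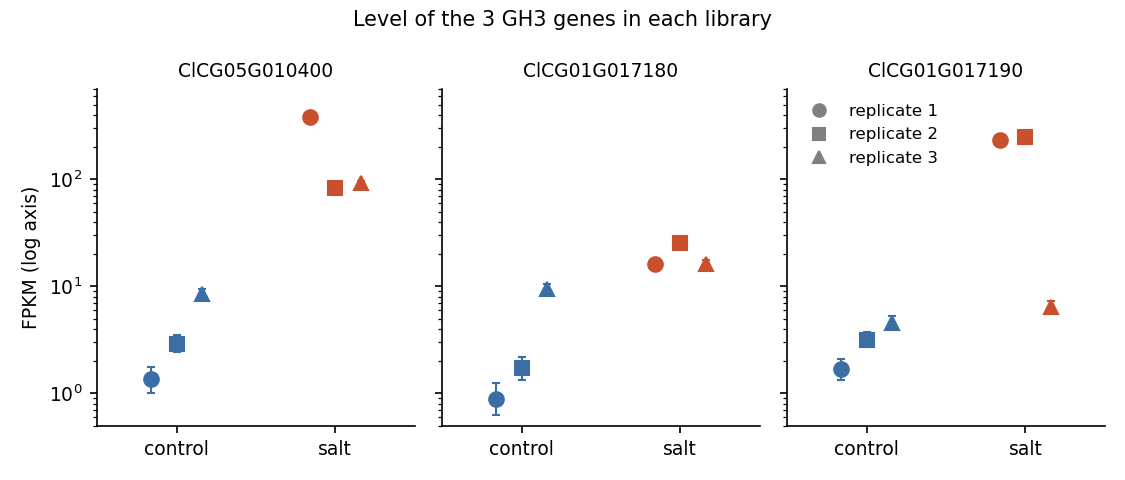
Level of each GH3 gene in each library, in FPKM on a log axis, with control in blue and salt in red, the replicate given by the symbol, and bars for the exact Poisson 95% interval of the fragments (counting error only). All salt points lie above all control points in each panel, and ClCG01G017190 in salt replicate 3, at 6.49 FPKM, lies far below the other salt points at 233 and 250 FPKM.

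ClCG05G010400 had 1.36, 2.93 and 8.47 FPKM in control replicates 1, 2 and 3, from 52, 115 and 295 fragments. It had 386, 83.9 and 93.0 FPKM in salt replicates 1, 2 and 3, from 13524, 2972 and 3458 fragments. Salt replicate 1 stood above the other salt libraries, and the lowest salt library was 9.9 times the highest control library. The means were 4.25 ± 3.74 FPKM in control and 187 ± 172 FPKM in salt (SD, n = 3), and the difference was 5.23 on the log2 scale (SE 0.717). Of all tested genes, 114 had a larger difference.

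The spread of ClCG05G010400 within each group was wide too. Its control libraries differed by 6.25 times and its salt libraries by 4.6 times, which counting error does not cover. The exact Poisson 95% interval of its level in control replicate 1 was 1.01 to 1.78 FPKM, and that in control replicate 3 was 7.53 to 9.5 FPKM. In control leaves this gene lay above 18.1% to 41.2% of the genes with a level above 0 in the same library, and in salt leaves above 92.5% to 98.6% of them.

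ClCG01G017180 had 0.895, 1.72 and 9.48 FPKM in control replicates 1, 2 and 3, from 36, 71 and 346 fragments. In salt replicates 1, 2 and 3 it had 16.1, 25.4 and 16.3 FPKM, from 593, 945 and 636 fragments. The groups came close to each other, since the lowest salt library was only 1.7 times control replicate 3. The means were 4.03 ± 4.73 FPKM in control and 19.3 ± 5.32 FPKM in salt (SD, n = 3), and the difference was 2.62 on the log2 scale (SE 0.68). The intervals for counting error of these nearest libraries did not meet, with 8.5 to 10.5 FPKM in control replicate 3 and 14.9 to 17.5 FPKM in salt replicate 1.

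For ClCG01G017180 the spread lay in the control plants. Its control libraries differed by 10.6 times, and only 2.0% of tested genes had a control SD as large on the log2 scale. The salt libraries differed by 1.58 times, and 62.8% of tested genes had a salt SD at least as large. Without control replicate 3 its difference was 3.46, against 2.62 with it.

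ClCG01G017190 had 1.68, 3.19 and 4.57 FPKM in control replicates 1, 2 and 3, from 80, 156 and 198 fragments. Its salt levels were 233, 250 and 6.49 FPKM in replicates 1, 2 and 3, from 10186, 11008 and 300 fragments. Salt replicates 1 and 2 were 51.1 and 54.6 times the highest control library, whereas salt replicate 3 was 1.42 times that library. For salt replicate 3 the counting interval was 5.77 to 7.26 FPKM, and for control replicate 3 it was 3.96 to 5.25 FPKM. The means of 3.15 ± 1.45 FPKM in control and 163 ± 136 FPKM in salt (SD, n = 3) thus describe no single salt library, and the salt median was 233 FPKM.

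The difference of ClCG01G017190 was 4.43 on the log2 scale (SE 1.25), and 6.14 (SE 0.391) without salt replicate 3. Only 8 of the 16638 tested genes had a larger SD among the salt libraries. A search made after these values were seen took the 141 tested genes that stood at least 16 times above the highest control library in both salt replicates 1 and 2, on FPKM + 0.5. In salt replicate 3, 3 of them (2.13%) were under 2 times the highest control library on the same scale. These were ClCG01G017190, the short-chain dehydrogenase/reductase gene ClCG03G016920 and Novel00860, a gene model of the authors with no description. ClCG03G016920 had 32.0, 54.6 and 0.307 FPKM in the salt libraries and at most 0.629 FPKM in control. With salt replicate 1 as the odd library the count was 0 of 106, and with salt replicate 2 it was 0 of 102. The criterion takes in only genes near their control level on FPKM + 0.5. It leaves out genes such as Novel00859 (20.6, 52.9 and 0.957 FPKM in salt) that were low in salt replicate 3 but further above control on that scale.

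In FPKM without further scaling, salt replicate 3 was not the lowest salt library for the other GH3 genes. ClCG05G010400 had 93.0 FPKM there, against 386 and 83.9 FPKM in salt replicates 1 and 2. ClCG01G017180 had 16.3 FPKM there, against 16.1 and 25.4 FPKM. The order depends on small margins. Median-ratio scaling, with factors of 0.693 and 0.881 for salt replicates 2 and 3, made salt replicate 3 the lowest for ClCG05G010400. For ClCG01G017180 the counting intervals of salt replicates 3 and 1 overlapped, at 15.1 to 17.6 and 14.9 to 17.5 FPKM.

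In control the mean levels of the 3 genes, 3.15 to 4.25 FPKM, did not differ beyond their spread. In salt the libraries of ClCG05G010400 (83.9 to 386 FPKM) and of ClCG01G017180 (16.1 to 25.4 FPKM) did not overlap, while those of ClCG01G017190 (6.49 to 250 FPKM) overlapped both. The summed GH3 level was 3.93, 7.84 and 22.5 FPKM in control replicates 1, 2 and 3 and 635, 359 and 116 FPKM in salt replicates 1, 2 and 3. ClCG05G010400 gave 34.5% to 37.6% of that sum in control. The largest control share was that of ClCG01G017190 in replicates 1 and 2 (42.7% and 40.7%) and of ClCG01G017180 in replicate 3 (42.1%). In salt ClCG05G010400 gave 60.7%, 23.4% and 80.3% in replicates 1, 2 and 3. In every control library the counting intervals of the leading gene and of ClCG05G010400 overlapped, so the leading gene in control was not settled. In control replicate 3 they were 8.5 to 10.5 FPKM for ClCG01G017180 and 7.53 to 9.5 FPKM for ClCG05G010400. The salt intervals lay apart, and the leading gene was ClCG05G010400 in salt replicates 1 and 3 and ClCG01G017190 (69.6%) in salt replicate 2.

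All 3 genes were lowest in control replicate 1 and highest in control replicate 3. The same order of the control libraries was found in 21.4% of all tested genes and in 27.2% of those that rose by limma (adjusted p below 0.05, which 13.6% of tested genes met with a rise). Control replicate 3 was the highest control library in 42.6% of tested genes and in 49.4% of those that rose. It was therefore often the highest control library over all tested genes, and somewhat more often among those that rose. The part of this in the GH3 values was not tested.

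ClCG01G017180 and ClCG01G017190 have adjoining identifiers on chromosome 1 of the Charleston Gray annotation, and their levels parted widely in salt replicates 1 and 2 only. The ratio of ClCG01G017190 to ClCG01G017180 was 1.87, 1.85 and 0.482 in control replicates 1, 2 and 3. In salt it was 14.5, 9.82 and 0.398. Both libraries numbered 3 were the ones in which ClCG01G017180 was the more abundant gene. How alike the pair is in sequence was not tested, and according to the paper only reads with a unique place in the genome entered the FPKM values, so fragments common to both genes would be missing from both.

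**Figure D2:**
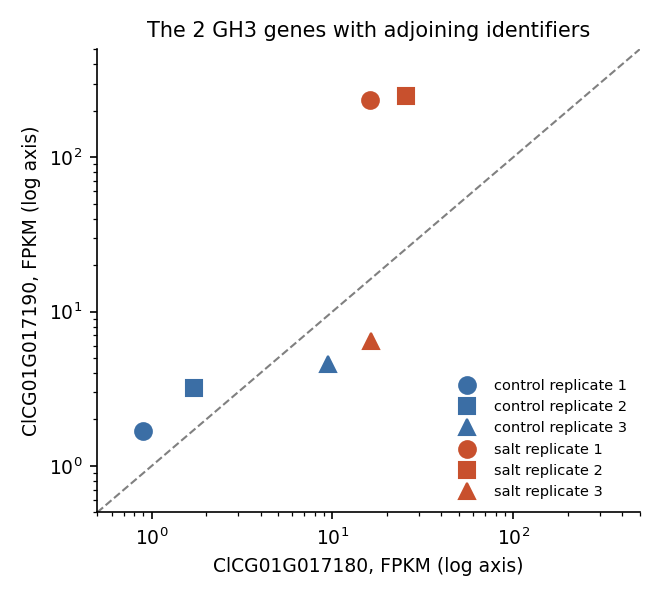
Level of ClCG01G017190 (vertical axis) against ClCG01G017180 (horizontal axis) in each of the 6 libraries, in FPKM on log axes, with equal levels on the dashed line. Salt replicates 1 and 2 lie far above the line, at ratios of 14.5 and 9.82, and both libraries numbered 3 lie below it.

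The genes most like each GH3 gene were found by the root mean square difference between log2 profiles, each centred on its mean over the 6 libraries. For ClCG05G010400 these were ClCG11G003190, a putative early nodulin (0.416), ClCG05G018210, a thaumatin-like protein (0.508), and ClCG08G012120, a malic enzyme (0.51), against a median of 3.07 over tested genes. ClCG11G003190 followed it closely in level as well, with 1.8, 4.49 and 9.23 FPKM in control and 284, 151 and 88.7 FPKM in salt. For ClCG01G017180 they were ClCG10G018050, a fasciclin-like arabinogalactan protein of the cell wall (0.309), ClCG10G005580, a glucose-6-phosphate/phosphate translocator (0.332), and ClCG01G017230, an extensin of the cell wall (0.344), against a median of 1.88. The first of these had 1.96, 3.93 and 28.7 FPKM in control and 37.2, 85.2 and 40.1 FPKM in salt, with the same high control replicate 3.

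For ClCG01G017190 the most similar profiles were those of Novel00859 (0.546), Novel00359 (0.628) and Novel00489 (0.64), gene models of the authors without a description, against a median of 3.1. Novel00859 was at 0 in all control libraries and had 20.6, 52.9 and 0.957 FPKM in salt. The GH3 genes were not among each other's nearest profiles. The distance was 1.57 between ClCG05G010400 and ClCG01G017180, 1.62 between ClCG05G010400 and ClCG01G017190, and 1.93 between the adjoining genes. Of the 16638 tested genes, 573 had a profile closer to ClCG01G017190 than its neighbour ClCG01G017180 had, and 8873 had one closer to ClCG01G017180 than ClCG01G017190 had. For ClCG05G010400, 454 genes were closer than ClCG01G017180 and 503 were closer than ClCG01G017190. As a match to ClCG01G017190, ClCG05G010400 came behind 179 genes, and as a match to ClCG01G017180 behind 4915. These distances describe 6 libraries and carry no test.

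The rest of the auxin pathway was taken from the study's list of changed hormone genes, which it chose on these libraries, so the counts are no independent evidence of direction. Rose and fell here mean an adjusted p below 0.05 in limma with Benjamini-Hochberg adjustment, by which 13.6% of all tested genes rose and 34.2% fell. Of the 25 auxin genes other than GH3, 23 were tested, and 4 rose, 18 fell and 1 did not pass. Their median difference was -2.57, or -2.66 with genes at 0 in a group set at their bound, against -0.57 over all tested genes. With median-ratio scaling 5 rose and 17 fell, with a median of -2.10. Leaving out control replicate 2 left 1 rise, and leaving out control replicate 1, salt replicate 2 or salt replicate 3 left 2 each.

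**Figure D3:**
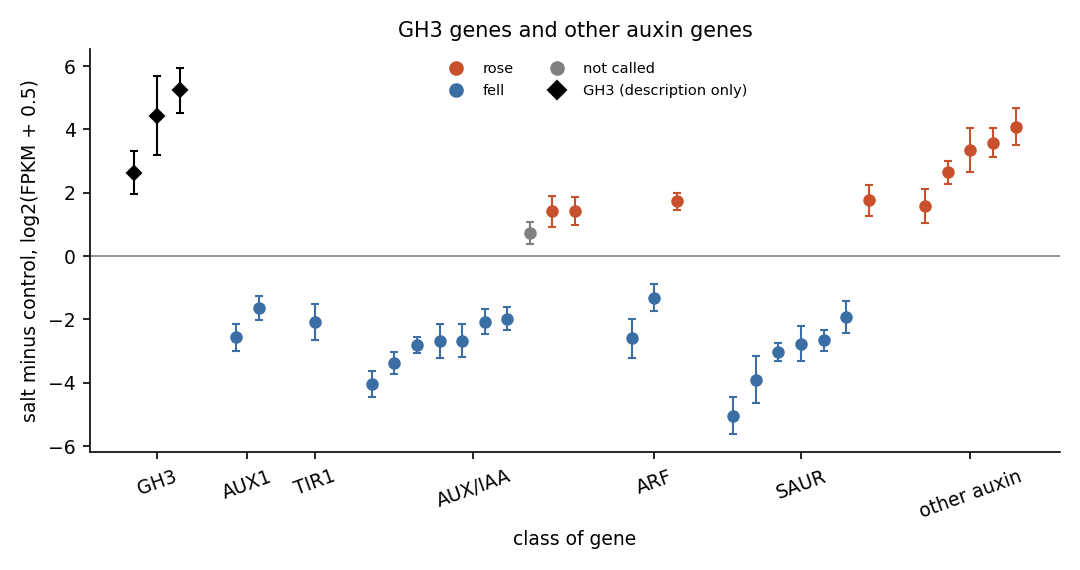
Salt minus control difference on log2(FPKM + 0.5) of each tested auxin gene, by class, with bars for the SE and colour for the limma call. The 3 GH3 genes (black, description only) lie between 2.62 and 5.23, whereas most AUX1, TIR1, Aux/IAA, ARF and SAUR genes lie below 0 and the 5 other auxin genes above it.

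The tested AUX1 and TIR1 genes of this list, for auxin entry and perception, were lower in salt. AUX1 proteins carry auxin into the cell, and both tested AUX1 genes fell. ClCG04G007060 went from 3.64 ± 1.12 FPKM to 0.195 ± 0.171 FPKM (SD, n = 3), a difference of -2.57 (SE 0.428, adjusted p = 0.00291 by limma). ClCG07G004080 had 1.06 ± 0.153 FPKM in control and no fragment in any salt library, so it was at least 33.8-fold lower, with the bound set at 3 fragments over the salt group (adjusted p = 0.0108 by limma). The TIR1 gene ClCG09G006450, for an auxin receptor, fell from 15.3 ± 6.57 FPKM to 3.68 ± 2.6 FPKM, by 2.08 on the log2 scale (SE 0.571, adjusted p = 0.0192 by limma). Without control replicate 3 its adjusted p was 0.0688, the highest of a range from 0.00521 over the alternatives.

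Aux/IAA proteins repress auxin response genes until the receptor marks them for breakdown, and of 10 such genes 7 fell, 2 rose and 1 did not pass. ClCG05G004660 had 14.4, 26.3 and 34.1 FPKM in control and 1.42, 0.654 and 0.864 FPKM in salt, a difference of -4.05 (SE 0.414, adjusted p = 0.000499 by limma). ClCG09G007530 fell by 3.38 on the log2 scale (adjusted p = 0.000603). The rises were smaller and less stable. ClCG06G006610 went from 27.0 ± 16.8 FPKM to 64.4 ± 7.61 FPKM, a difference of 1.43 (SE 0.44, adjusted p = 0.0291), and lost its call in 5 of 15 alternatives, with adjusted p from 0.00829 to 0.0788. ClCG06G007280 differed by 1.41 (adjusted p = 0.0412) and lost its call in 7 of 15, with adjusted p from 0.0113 to 0.138.

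ARF proteins bind the promoters of auxin response genes, and of 3 ARF genes 2 fell and 1 rose. ClCG01G023350 fell by 2.60 (adjusted p = 0.0116 by limma) and ClCG09G009470 fell by 1.31 (adjusted p = 0.0375). The latter had an adjusted p of 0.0608 with the replicate number as a block and of 0.0913 with median-ratio scaling, and lost its call in 8 of 15 alternatives, with adjusted p from 0.0264 to 0.104. ClCG11G000280 rose, with 30.5, 26.7 and 45.9 FPKM in control and 110, 106 and 120 FPKM in salt, a difference of 1.72 (SE 0.255, adjusted p = 0.00189).

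SAUR genes are, like GH3 genes, early auxin response genes, and their products act in cell expansion. Of 7 tested, 6 fell and 1 rose. ClCG02G004420 had 14.3, 15.9 and 45.8 FPKM in control and 0, 0.77 and 0 FPKM in salt, the largest fall of the auxin genes tested on the log2(FPKM + 0.5) scale, at -5.04, a scale that understates the fall of genes at 0 such as ClCG07G004080 (SE 0.581, adjusted p = 0.000798 by limma). ClCG11G003760 fell by 3.90 (adjusted p = 0.00477). ClCG04G009170 had no fragment in any control library and 0.703, 0.834 and 2.52 FPKM in salt, so it was at least 10.4-fold higher (adjusted p = 0.0189, and 0.0507 without control replicate 2, over a range from 0.0105 to 0.0507).

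A further 5 genes that the study's table of changed genes describes with the word auxin all rose, with a median of 3.34. The table was made on these libraries, so this count too follows from the choice. One of them, ClCG03G014950, described as an early auxin response protein, had an adjusted p of 0.0425 by limma and lost its call in 7 of 15 alternatives, with adjusted p from 0.0169 to 0.108. ClCG11G019060, of the auxin efflux carrier family, which moves auxin out of the cell, had 9.27, 14.3 and 36.9 FPKM in control and 176, 225 and 232 FPKM in salt, a difference of 3.58 (SE 0.457, adjusted p = 0.00112 by limma). ClCG03G001880, described as auxin-regulated, had 0, 1.41 and 1.68 FPKM in control and 26.5, 16.1 and 22.0 FPKM in salt, a difference of 4.08 (SE 0.582, adjusted p = 0.00164). The GH3 genes had the sign of these genes and not that of most listed Aux/IAA and SAUR genes. All of them were listed for a change in this comparison, so nothing is read from the shared sign.

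The 20 genes within 5 identifier steps of a GH3 gene were taken by identifier only, as the nearest genes in the annotation's numbering, and coordinates were not used here. Of 18 tested, 3 rose, 5 fell and 10 did not pass by limma, with a median of 0.30. Among all 16638 tested genes 13.6% rose and 34.2% fell, and with median-ratio scaling 3719 rose and 3472 fell. Of the neighbours, 8 rose and 3 fell with median-ratio scaling, and 2 fell without control replicate 1 and 3 without control replicate 2 or 3. Around ClCG05G010400 none of 9 tested neighbours rose and 3 fell, with a median of 0.00, and with median-ratio scaling 2 rose and 2 fell. The falls were ClCG05G010360 (-1.62, adjusted p = 0.00262), ClCG05G010430 (-1.69, adjusted p = 0.0124, and 0.0517 without control replicate 1, the top of a range from 0.00525) and ClCG05G010440 (-2.39, adjusted p = 0.0332, which lost its call in 7 of 15 alternatives, with adjusted p from 0.00776 to 0.105). The neighbours on either side of the GH3 gene, ClCG05G010390 and ClCG05G010410, had differences of 0.77 and 0.58, with adjusted p of 0.222 and 0.194 by limma. ClCG05G010410 rose with median-ratio scaling. ClCG05G010350, ClCG05G010370, ClCG05G010380 and ClCG05G010450 had differences of 0.00, 0.08, 0.83 and -0.74 and did not pass, with adjusted p of 0.998, 0.907, 0.0544 and 0.345. Of these, ClCG05G010380 rose with median-ratio scaling.

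Around the chromosome 1 pair 3 of 9 tested neighbours rose and 2 fell, against 13.6% and 34.2% of all tested genes. ClCG01G017200, the next identifier after ClCG01G017190 and described as a U-box domain-containing protein, had 11.1, 15.9 and 14.4 FPKM in control and 126, 95.8 and 108 FPKM in salt, a difference of 2.95 (SE 0.235, adjusted p = 0.000197 by limma). Salt replicate 3 was not low for this gene, in contrast to 6.49 FPKM for ClCG01G017190 beside it. ClCG01G017140, a putative cytochrome P450, differed by 2.82 (adjusted p = 0.000454), with 425, 380 and 377 FPKM in salt. The extensin gene ClCG01G017230 differed by 3.24 (adjusted p = 0.00698), and like ClCG01G017180 it was highest among controls in replicate 3, with 4.05, 5.94 and 34.4 FPKM.

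The neighbour before ClCG01G017180, ClCG01G017170, went from 1.51 ± 0.362 FPKM to no fragment in any salt library, at least 16.3-fold lower (adjusted p = 0.0053 by limma). ClCG01G017160 differed by -1.98 (adjusted p = 0.0426), and lost its call in 8 of 15 alternatives, with adjusted p from 0.0137 to 0.116. ClCG01G017130 had a difference of 1.51 that did not pass (adjusted p = 0.1), and its adjusted p was 0.0273 with the replicate number as a block and 0.00678 without control replicate 3, the lowest of a range up to 0.286. The other chromosome 1 neighbours, ClCG01G017150, ClCG01G017210 and ClCG01G017220, had differences of 0.56, 0.52 and -0.67, with adjusted p of 0.114, 0.0609 and 0.377 by limma. ClCG01G017150, ClCG01G017210 and ClCG01G017130 rose with median-ratio scaling.

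**Figure D4:**
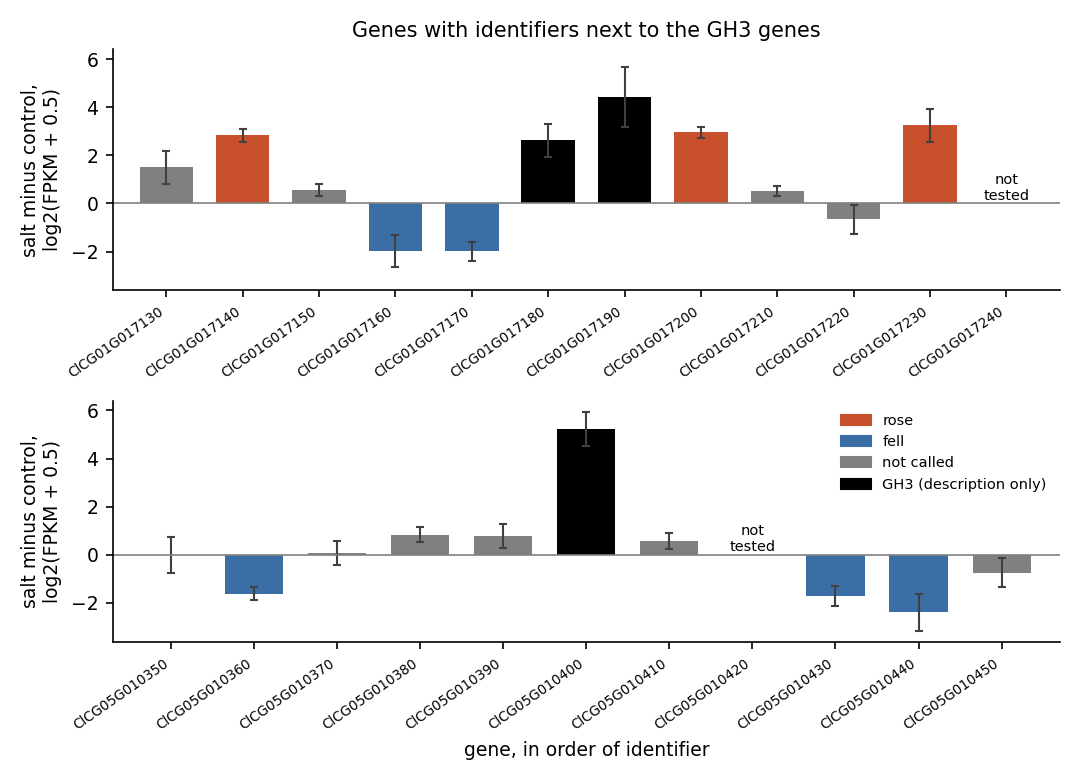
Salt minus control difference on log2(FPKM + 0.5) of the genes with identifiers around the chromosome 1 pair (top) and around ClCG05G010400 (bottom), with bars for the difference, error bars for the SE and colour for the limma call. ClCG05G010400 (5.23) stands among neighbours between -2.39 and 0.83. The neighbours of the chromosome 1 pair lie between -1.99 and 3.24, with 3 of 9 at 2.82 to 3.24 and 2 that fell.

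The differences of the GH3 genes were recomputed under each of 15 alternatives for the pseudocount, filter, scaling, block, unit and libraries. Those of ClCG05G010400 ran from 4.53 to 5.84, those of ClCG01G017180 from 2.04 to 3.46 and those of ClCG01G017190 from 3.55 to 6.14, and both ends of each range came from leaving out a library. After median-ratio scaling the lowest salt library was 16.1, 2.3 and 2.08 times the highest control library for ClCG05G010400, ClCG01G017180 and ClCG01G017190. With this scaling 28.9% of all tested genes had every salt library above every control library, against 17.7% without it.

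**Figure D5:**
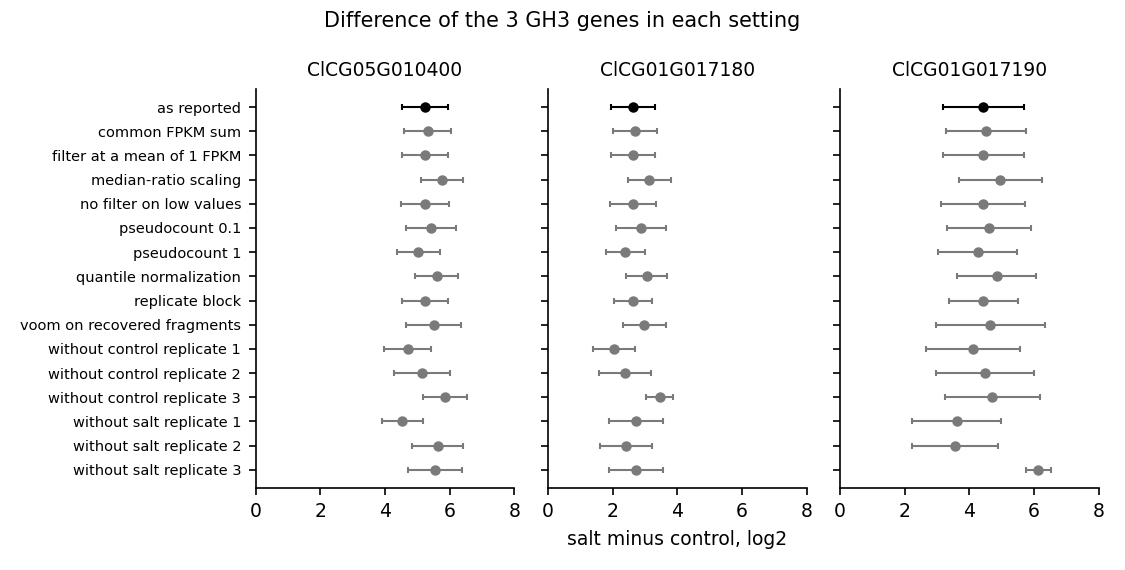
Salt minus control difference of each GH3 gene, on the log2 scale, as reported (black) and under each of the 15 alternatives (grey), with bars for the SE. All values are above 0, and the value of 6.14 for ClCG01G017190 without salt replicate 3 has the narrowest bar of its panel.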

How the data were processed

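Leaf RNA-seq of 3 control and 3 salt libraries was analysed from the deposited expression table. Its FPKM values were computed by the authors from reads aligned to the Charleston Gray genome, each library on its own. The paper names TopHat and HTSeq and the submitters' processing notes name HISAT2 2.1.0 and featureCounts, and which of them made the values is not settled here.

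Genes averaging 0.5 FPKM or more over the libraries were kept. The log2 values, with 0.5 added to each FPKM, were fitted in limma (version 3.58.1, under R 4.3.3), using a variance trend on the mean and Benjamini-Hochberg adjustment at 0.05. The study's own methods name a count test, whose counts were not used here. Python 3.11.15 was used for tables and figures. Whole fragments behind the FPKM values were recovered for all 19557 genes above 0 (tolerance 0.002) and served for depth, exact Poisson 95% intervals, bounds of 3 fragments over a group, and an alternative fit with limma voom. Intervals and bounds cover counting error only.

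The GH3 genes and all gene lists were chosen with earlier results of these data known. Named were the GH3 genes, up to 2 rises and 2 falls of each auxin class, the tested neighbours, and the 3 most similar profiles of each GH3 gene. Genes named outside this rule were chosen after their values were seen. Deviations from the group means correlated across genes at 0.175, 0.105 and 0.128 between control and salt libraries of the same replicate number, and at -0.108 to -0.0391 otherwise. Each group was centred on its own mean, so positive values for like numbers make those for unlike numbers negative on the whole. The negative values thus add no evidence of pairing. The pairing rests on these data alone, since the labels and the paper give none, and the fit without the block is reported. Alternatives changed the pseudocount (0.1 or 1), the filter (none, or a mean of 1 FPKM), the scaling (median ratio, common FPKM sum, quantile), the block, the unit and each library in turn.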

Additional observations from a re-analysis of the deposited data

How the results depend on the processing

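The differences of the 3 GH3 genes stayed above 0 and moved by less than the SD between replicates, pooled over both groups of each gene, in all 15 alternatives. Against the SD of the less variable group alone, ClCG01G017180 moved by more with median-ratio scaling (3.13), quantile normalization (3.06) and without control replicate 1 or 3, and ClCG01G017190 without any one of the salt replicates. With single libraries left out they ran from 4.53 to 5.84 for ClCG05G010400, from 2.04 to 3.46 for ClCG01G017180 and from 3.55 to 6.14 for ClCG01G017190. The fit with the replicate number as a block gave the same differences, 5.23, 2.62 and 4.43, and counts of 4 rises and 17 falls among the auxin genes of the hormone list, 4 and 5 among the neighbours and 2279 and 5737 among all tested genes. Among the named and listed genes the block changed no other call than those of ClCG09G009470 and ClCG01G017130. Median-ratio scaling gave 8 rises and 3 falls among the neighbours and 3719 rises and 3472 falls among all tested genes, against 2266 and 5684 as reported. Quantile normalization gave 7 and 3 among the neighbours and 3602 rises among all, and a common FPKM sum gave 5 rises among the neighbours. With single libraries left out, the auxin genes had 1 to 3 rises and 16 to 18 falls, the neighbours 3 to 4 rises and 2 to 5 falls, and all tested genes 1624 to 2109 rises and 3685 to 5613 falls. The low end of the falls came without control replicate 2 for all genes (3685) and without control replicate 1 for the neighbours (2). Over 46 single genes, 622 of 686 values kept their call or lack of one, 46 lost the call and 18 gained it. No called gene changed direction. Small differences without a call could change sign, as for ClCG05G010350, at 0.002 as reported and -0.634 without salt replicate 3. With 3 libraries per group, the wide spread of ClCG05G010400 and ClCG01G017190 in salt and of ClCG01G017180 in control limits the precision of their means more than depth does.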

Other observations

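Some values of single libraries bear on the GH3 genes without belonging to a comparison. ClCG05G010400 was 23.9, 3.3 and 5.7 times as abundant as ClCG01G017180 in salt replicates 1, 2 and 3, against 1.51, 1.7 and 0.894 times in control. Relative to ClCG01G017190 it was 1.65, 0.336 and 14.3 times as abundant in the salt libraries. The most abundant SAUR gene of the list, ClCG06G001920, chosen after its values were seen, had 305 ± 90.7 FPKM in control and 36.2 ± 6.96 FPKM in salt (SD, n = 3), so the summed GH3 level passed it in all salt libraries and in no control library. The order of the salt libraries by summed GH3 level was 1, 2, 3, and by the summed level of the chlorophyll a-b binding genes it was 1, 3, 2.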
